A study of Arabidopsis thaliana with 3 samples.

Results

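LHCB2.1, LHCB2.2, LHCA3 and PSBO2 are nuclear genes of Arabidopsis thaliana for proteins that harvest light or split water in the chloroplast. They were picked by their deposited positions, and these are 4 of 33857 identifiers in the table, of which 26029 could be given a gene name. Transcripts were profiled by strand-specific RNA sequencing in leaf, silique (the fruit with its developing seeds) and inflorescence (the flowering shoot tip). All plants were wild type of the Columbia accession (Col-0), grown in long days of 16 hours of light and sampled at 5.5 weeks, and no mutant or transgene was involved. All had also been bombarded at 3 weeks with gold particles that carried no plasmid, 18 days before collection, so the mock treatment is common to the 3 organs. With 1 library per organ, replicate error could not be estimated, so the differences are described without errors or p-values. Neither the number of plants pooled per library nor the time of day of collection is stated in the labels.

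The light-harvesting antenna is a set of chlorophyll-binding proteins in the thylakoid membrane that pass excitation energy to the reaction centres. LHCB proteins serve mainly photosystem II, where LHCB1, LHCB2 and LHCB3 form the trimers of light-harvesting complex II, and LHCA proteins form the belt of photosystem I. PSBO is the extrinsic protein that stabilises the manganese cluster of photosystem II, at which water is oxidised and oxygen released. Phosphorylation of LHCB2 by the kinase STN7 lets trimers of LHCB1 and LHCB2 move towards photosystem I in state transitions. These genes are switched on by light, and many antenna genes also follow the circadian clock.

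LHCB2.1 (AT2G05100) is the row Chr2:1823239-1824425 of the files, on the TAIR10 build, and LHCB2.2 (AT2G05070) is the row Chr2:1799233-1800392. LHCA3 (AT1G61520) is the row Chr1:22699714-22701383, and PSBO2 (AT3G50820) is the row Chr3:18890875-18892426. The files count starts from 0, so these genes begin 1 base later in a genome browser, LHCB2.1 at 1823240, LHCB2.2 at 1799234, LHCA3 at 22699715 and PSBO2 at 18890876. The intervals are 1186, 1159, 1669 and 1551 bp wide for LHCB2.1, LHCB2.2, LHCA3 and PSBO2, against lengths of 1491, 1239, 1698 and 1635 bp for these genes in the RefSeq table. Each carried 1 identifier, and no other identifier of the table overlapped it. Exon structure and sequence were not analysed here.

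The 4 genes fell into a pair of patterns. LHCB2.1 and LHCB2.2 were highest in silique, intermediate in leaf and lowest in inflorescence, whereas LHCA3 and PSBO2 were highest in leaf, intermediate in silique and lowest in inflorescence. The unit is FPKM as the authors deposited it, which divides the fragments of a gene by its transcript length and by the size of the library.

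LHCB2.1, which encodes a protein of the trimeric antenna, was at 141 FPKM in leaf, 264 in silique and 26.5 in inflorescence. LHCB2.2, its close relative, was at 114 FPKM in leaf, 194 in silique and 21.3 in inflorescence. In both genes the silique library held the highest level and the inflorescence library the lowest, with leaf between them. On the log2(FPKM + 1) scale, used for all ratios between organs, LHCB2.1 differed by 2.37 for leaf over inflorescence, by -0.90 for leaf over silique and by 3.27 for silique over inflorescence. LHCB2.2 gave 2.37, -0.76 and 3.13 in the same 3 comparisons. LHCB2.1 was thus 1.87-fold and LHCB2.2 1.69-fold higher in silique than in leaf.

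LHCA3, a subunit of the photosystem I antenna, was at 2049 FPKM in leaf, 1033 in silique and 310 in inflorescence. Its log2 ratios were 2.72 (leaf over inflorescence), 0.99 (leaf over silique) and 1.74 (silique over inflorescence). PSBO2, the less abundant of the PSBO genes in each organ, was at 1197 FPKM in leaf, 415 in silique and 167 in inflorescence. The corresponding log2 ratios were 2.83, 1.53 and 1.31. Leaf therefore held 1.98 times the silique level of LHCA3 and 2.88 times that of PSBO2, the opposite order to the LHCB2 genes.

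**Figure D1:**
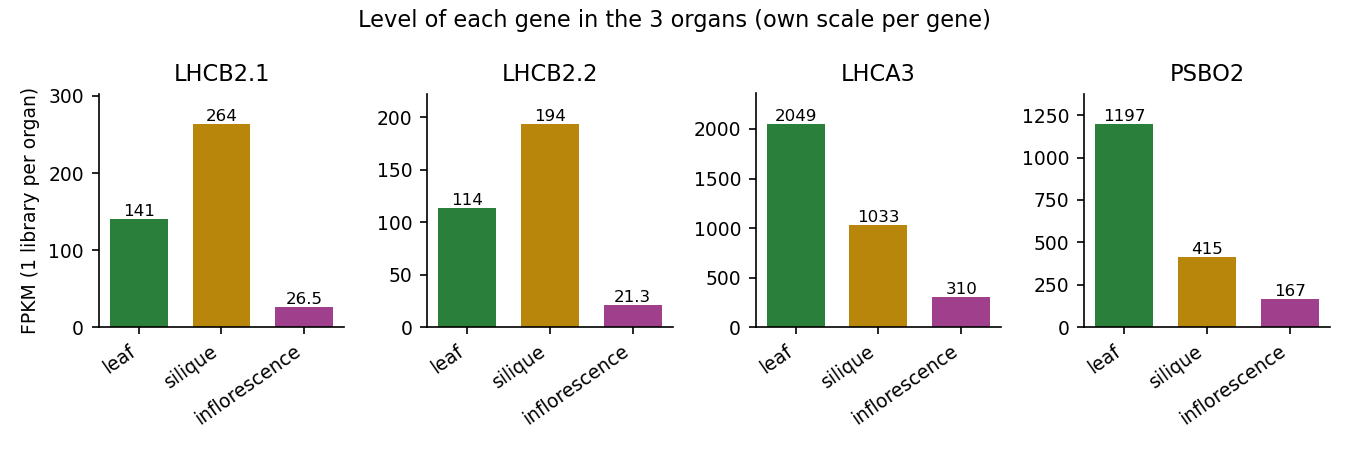
FPKM of LHCB2.1, LHCB2.2, LHCA3 and PSBO2 in leaf, silique and inflorescence, as bars from 0 with a separate axis for each gene and 1 library per bar. The silique bar is the tallest for LHCB2.1 (264 FPKM) and LHCB2.2 (194 FPKM), and the leaf bar is the tallest for LHCA3 (2049 FPKM) and PSBO2 (1197 FPKM).

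A difference was counted when it was at least 4-fold and its higher organ held 5 FPKM or more, and all 4 genes reached that minimum in every organ. All 4 were counted as higher in leaf than in inflorescence, as were 8.11% of the 17444 loci that reached the minimum in either organ. None of the 4 was counted between leaf and silique, where 5.94% of 17451 loci were higher in leaf and 12.2% in silique. Only the LHCB2 genes were counted as higher in silique than in inflorescence, LHCB2.1 at 9.64-fold and LHCB2.2 at 8.73-fold, against 7.26% of 17793 loci. LHCA3, at 3.33-fold, and PSBO2, at 2.47-fold, stayed under the limit in that comparison.

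Scaling between libraries bears on the size of these ratios. In the deposited values, leaf over inflorescence had a median log2 ratio of 0.16 over 12941 loci that held 5 FPKM or more in all organs. The median was 0.09 for leaf over silique and 0.08 for silique over inflorescence. When each library was rescaled to the same sum, the median for leaf over inflorescence moved to -0.31. The LHCB2.1 and LHCB2.2 ratios for leaf over inflorescence were then both 1.88, under the 4-fold limit, while LHCA3 at 2.23 and PSBO2 at 2.34 stayed above it. The same rescaling turned the counts over all loci from 1414 higher in leaf and 2105 higher in inflorescence into 854 and 2596. The order of the organs did not depend on scaling for any of the 4 genes. Across 3 ways of rescaling and the deposited values, leaf over silique ranged between -1.16 and -0.90 for LHCB2.1, between -1.01 and -0.76 for LHCB2.2, between 0.73 and 0.99 for LHCA3, and between 1.27 and 1.53 for PSBO2.

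Ratios between genes within a library, taken on FPKM with no pseudocount, do not depend on that scaling. The LHCA3 level was 14.6 times that of LHCB2.1 in leaf, 3.92 times in silique and 11.7 times in inflorescence. PSBO2 was at 8.51 times the LHCB2.1 level in leaf, 1.57 times in silique and 6.32 times in inflorescence. Leaf and inflorescence were thus alike in these proportions, and silique was the library with proportionally more LHCB2.1. LHCA3 over PSBO2 varied less, at 1.71 in leaf, 2.49 in silique and 1.85 in inflorescence.

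Among all named loci LHCA3 ranked 37th in leaf, 55th in silique and 291st in inflorescence, and PSBO2 77th, 232nd and 638th in the same organs. LHCB2.1 ranked 955th in leaf, 456th in silique and 4641st in inflorescence. LHCB2.2 ranked 1203rd in leaf, 670th in silique and 5653rd in inflorescence. The organ that ranked each gene highest was therefore leaf for LHCA3 and PSBO2 and silique for the LHCB2 genes.

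LHCB2.1 and LHCB2.2 sit 22847 bp apart with 5 named loci between them, all of which were under 1 FPKM in every organ. The highest value among these was 0.0285 FPKM, for AT2G05090 in leaf. On the outer sides, AT2G05060 was listed at 0 in leaf and reached 0.369 FPKM in silique and 0.0271 in inflorescence, while AT2G05110 was listed at 0 in the 3 organs. The named locus before LHCA3, AT1G61510, was also listed at 0 in every organ, and the one after it, AT1G61665, was at 1.42 FPKM in leaf, 0.901 in silique and 0.474 in inflorescence. PSBO2 has transcribed neighbours: AT3G50810 was at 29.2 FPKM in leaf, 17.1 in silique and 17.5 in inflorescence, and COR413-PM2, named for cold-regulated membrane proteins, at 110, 118 and 55.6.

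LHCB2.1 and LHCB2.2 are very similar genes, and how reads that match both were counted is not stated in the labels or files, so their split is uncertain. Their proportion was nearly constant, with LHCB2.1 at 1.23 times the LHCB2.2 level in leaf, 1.36 times in silique and 1.24 times in inflorescence. LHCB2.3 (AT3G27690), the remaining LHCB2 gene, on chromosome 3, was lower, at 47.6 FPKM in leaf, 72.7 in silique and 10.1 in inflorescence. It had the same order of organs, with log2 ratios of 2.13 for leaf over inflorescence and -0.60 for leaf over silique. Summed over the 3 genes, which depends less on how shared reads were divided, LHCB2 reached 302 FPKM in leaf, 530 in silique and 57.9 in inflorescence.

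PSBO2 was the minor form beside PSBO1, whose protein is the main water-splitting PSBO of Arabidopsis. PSBO1 was at 3361 FPKM in leaf, 1387 in silique and 789 in inflorescence. PSBO2 made up 26.3% of the PSBO sum in leaf, 23.0% in silique and 17.5% in inflorescence. The log2 ratio of leaf over inflorescence was 2.83 for PSBO2 and 2.09 for PSBO1. These genes are also alike in sequence, and the division of shared reads is uncertain for them as well.

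Of 21 antenna genes listed, 13 had a locus of their own, and all 13 reached the minimum. Of these, 10 were at least 4-fold higher in leaf than in inflorescence and none lower, against 8.11% of all loci higher and 12.1% lower. That count includes LHCB2.1, LHCB2.2 and LHCA3. When libraries were rescaled to the same sum it was 4, while the count over all loci fell from 1414 to 854. For leaf over inflorescence the antenna median was 2.21 on the log2 scale, against 0.06 over all loci that reached the minimum, and 0.99 for leaf over silique, against -0.0024. In silique 5 of the 13 were at least 4-fold above inflorescence and none 4-fold below it, against 7.26% and 5.52% of all loci. The median for silique over inflorescence was 1.46, against 0.07 over all loci.

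Among the photosystem I antenna genes, LHCA2 stood above LHCA3, at 2687 FPKM in leaf, 1093 in silique and 578 in inflorescence. LHCA1 was at 822 FPKM in leaf, 727 in silique and 143 in inflorescence. Leaf and silique were close for LHCA1, with a log2 ratio of 0.18 that changed sign to -0.08 when libraries were rescaled to the same sum. LHCA6, which links photosystem I to the NDH complex, was at 208 FPKM in leaf, 78.3 in silique and 29.1 in inflorescence. The LHCA3 to LHCA1 proportion was 2.49 in leaf, 1.42 in silique and 2.16 in inflorescence.

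LHCB1.3, the most abundant named antenna gene, was at 6314 FPKM in leaf, 3172 in silique and 2087 in inflorescence. LHCB1.4 had the widest range of the family, at 278 FPKM in leaf, 94.1 in silique and 6.03 in inflorescence, a log2 ratio of 5.31 for leaf over inflorescence. LHCB1 genes are near-identical copies of each other, so these values share the uncertainty on divided reads. The minor antenna genes LHCB4.1 and LHCB5, whose monomeric proteins connect trimers to the photosystem II core, were at 2075 and 2510 FPKM in leaf, 984 and 1790 in silique, and 490 and 648 in inflorescence. LHCB7, a rare relative, was at 28.7 FPKM in leaf, 7.02 in silique and 6.19 in inflorescence, and its order between silique and inflorescence turned round under rescaling to the same sum and when the highest loci were left out.

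LHCB4.3 was the only named antenna gene that was lowest in leaf, at 52.7 FPKM in leaf, 151 in silique and 92.5 in inflorescence. Its relative LHCB4.1 was at 39.4 times the LHCB4.3 level in leaf, 6.51 times in silique and 5.30 times in inflorescence. The 4 named antenna genes that were higher in silique than in leaf were LHCB2.1, LHCB2.2, LHCB2.3 and LHCB4.3.

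**Figure D2:**
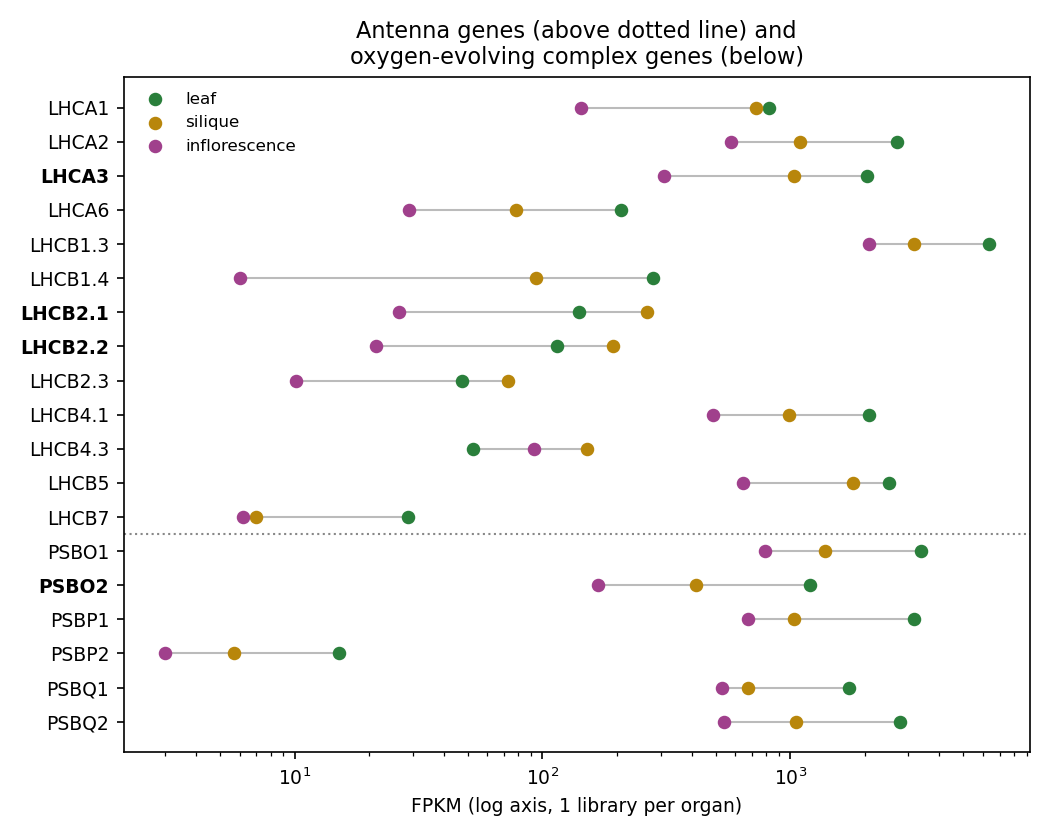
FPKM on a log axis for the 13 named antenna genes (above the dotted line) and the 6 named oxygen-evolving complex genes (below it), with 1 point per organ and a grey line over the range of each gene. Names in bold are LHCB2.1, LHCB2.2, LHCA3 and PSBO2. The silique point lies to the right of the leaf point for the LHCB2 genes and LHCB4.3, and to its left for the other genes.

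The other 8 antenna genes lie at positions with several genes or identifiers, where a value cannot be given to a gene. LHCB1.1 and LHCB1.2 fall in the same locus, with 1 identifier, on chromosome 1 at 10472275 to 10475959. That locus holds no other reference gene by the naming rule, and it was at 243 FPKM in leaf, 826 in silique and 47.1 in inflorescence, so it had the order of organs seen in LHCB2, with a log2 ratio of -1.76 for leaf over silique. At the position of LHCB3, which also holds AT5G54280, the identifiers were at 686 and 6.90 FPKM in leaf, 796 and 9.51 in silique, and 141 and 9.80 in inflorescence. At the position of LHCB1.5, with 3 reference genes, the levels were 1934 and 11.6 FPKM in leaf, 2301 and 28.1 in silique, and 205 and 13.9 in inflorescence. At these positions each identifier was higher in silique than in leaf. The position of LHCA4 gave 1350 and 0.885 FPKM in leaf, 1445 and 2.32 in silique, and 321 and 5.15 in inflorescence. For LHCB4.2, LHCB6 and LHCA5 the higher identifier at the position was at 689, 713 and 297 FPKM in leaf, 446, 561 and 91.7 in silique, and 196, 213 and 61.9 in inflorescence.

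PSBO2 belongs to the extrinsic proteins of the oxygen-evolving complex. Of 7 genes listed, 6 had a locus of their own, and each was highest in leaf and lowest in inflorescence. Of the 6, 5 were at least 4-fold higher in leaf than in inflorescence, against 8.11% of all loci. After rescaling to the same sum only PSBO2 was, while the count over all loci fell from 1414 to 854. The median log2 ratio in the deposited values was 2.16, against 0.06 over all loci. None was 4-fold higher in leaf than in silique, against 5.94% of all loci, or 4-fold higher in silique than in inflorescence, against 7.26%, and none was 4-fold lower. The medians were 1.38 and 0.78, against -0.0024 and 0.07 over all loci. Without PSBO2, 4 of 5 were at least 4-fold higher in leaf than in inflorescence. The medians were then 2.09 for leaf over inflorescence, 1.36 for leaf over silique and 0.74 for silique over inflorescence. PSBP1, the main PSBP gene, was at 3166 FPKM in leaf, 1033 in silique and 676 in inflorescence. PSBQ1 and PSBQ2 were at 1731 and 2775 FPKM in leaf, 676 and 1055 in silique, and 533 and 542 in inflorescence. PSBP2 was far lower, at 15.2 FPKM in leaf, 5.69 in silique and 3.00 in inflorescence. PSBO2 had the highest log2 ratio of the 6 for leaf over inflorescence and for silique over inflorescence, whereas PSBP1, at 1.61, was above it for leaf over silique. At the position of PSBR the identifiers were at 5604 and 46.5 FPKM in leaf, 1530 and 27.7 in silique, and 842 and 21.2 in inflorescence.

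Across 5 lists of nuclear light-reaction genes, 45 had a locus of their own, and 4 of them, the LHCB2 genes and LHCB4.3, were higher in silique than in leaf. When libraries were rescaled to the same sum, LHCA1 brought this to 5. Among 31 of the 45 that were at least 4-fold higher in leaf than in inflorescence, the LHCB2 genes were the 3 with silique above leaf. After rescaling to the same sum 8 passed the 4-fold limit. The LHCB2 genes were then not among them, and LHCA1 was the 1 with silique above leaf. Among all 988 named loci that were at least 4-fold higher in leaf than in inflorescence, 42 (4.25%) had silique above leaf, or 22 of 596 (3.69%) after that rescaling. Shared positions are outside these counts. In the deposited values the LHCB1.1 and LHCB1.2 locus also passed the 4-fold limit with silique above leaf, at -1.76 for leaf over silique. So did the higher identifiers at the positions of LHCB1.5, LHCB3 and LHCA4, at -0.25, -0.21 and -0.10. Those at the positions of LHCA5 and PSBR passed it with leaf above silique, at 1.68 and 1.87.

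**Figure D3:**
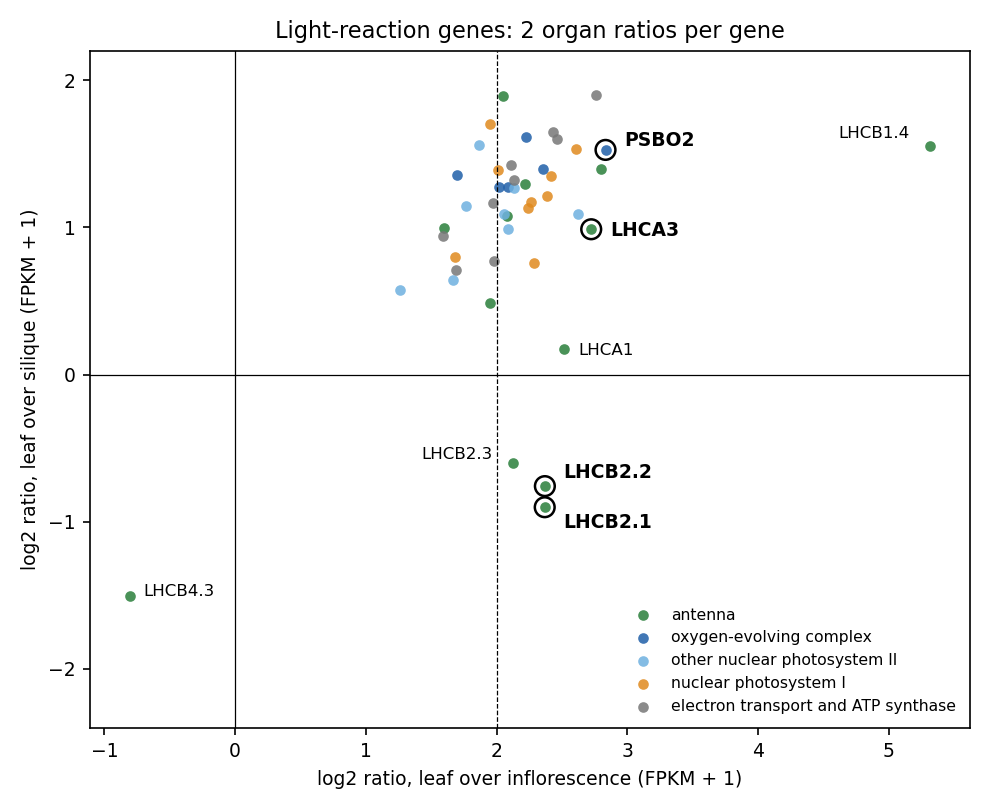
Each point is 1 of 45 nuclear light-reaction genes, coloured by list, with its log2 ratio of leaf over inflorescence on the x axis and of leaf over silique on the y axis; circles mark LHCB2.1, LHCB2.2, LHCA3 and PSBO2, and the dashed line marks 4-fold. LHCB2.1 (2.37, -0.90) and LHCB2.2 (2.37, -0.76) lie below the zero line of the y axis, LHCA3 (2.72, 0.99) and PSBO2 (2.83, 1.53) above it.

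The other nuclear photosystem genes with a locus of their own were highest in leaf. All 8 nuclear photosystem II genes outside the antenna and the oxygen-evolving complex were highest in leaf. Of these, 4 were at least 4-fold over inflorescence, against 8.11% of all loci. After rescaling to the same sum only PSBS was, while the count over all loci fell from 1414 to 854. The median log2 ratio of the 8 in the deposited values was 1.96. In this list PSBS, the sensor of excess light, was at 2102 FPKM in leaf, 986 in silique and 340 in inflorescence, and PSBX, PSBW and PSBY, small subunits, were at 3936, 2397 and 1202 in leaf, 1849, 996 and 606 in silique, and 947, 546 and 283 in inflorescence. All 9 nuclear photosystem I genes were highest in leaf, with a median log2 ratio over inflorescence of 2.27. Of these, 7 were at least 4-fold over inflorescence, against 8.11% of all loci, and only PSAL was after rescaling to the same sum. PSAF, which docks plastocyanin, was at 3651 FPKM in leaf, 2157 in silique and 750 in inflorescence, and PSAL, which is needed for trimers to dock in state transitions, at 3292, 1138 and 540. PSAD1 and PSAD2, of the ferredoxin side, were at 2404 and 998 FPKM in leaf, 941 and 431 in silique, and 450 and 190 in inflorescence.

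The 9 named genes of electron transport and ATP synthase were likewise all highest in leaf. Of these, 5 were at least 4-fold over inflorescence, against 8.11% of all loci. After rescaling to the same sum only FNR2 was, while the count over all loci fell from 1414 to 854. The median log2 ratio of the 9 in the deposited values was 2.11. FNR2, a ferredoxin-NADP reductase gene, was at 1133 FPKM in leaf, 304 in silique and 167 in inflorescence. PETC, of the Rieske protein, and the ATP synthase genes ATPC1 and ATPG were at 1702, 1541 and 1690 FPKM in leaf, 680, 492 and 556 in silique, and 388, 286 and 306 in inflorescence. In these 3 lists no gene was 4-fold apart between leaf and silique, against 5.94% of all loci higher in leaf and 12.2% in silique. None was 4-fold apart between silique and inflorescence either, against 7.26% of all loci higher in silique and 5.52% in inflorescence.

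Genes that insert, modify and phosphorylate the antenna did not have the LHCB2 order. Of 9 listed, 6 had a locus of their own, and all 6 were highest in leaf. STN7 and TAP38 were the 2 at least 4-fold over inflorescence, against 8.11% of all loci. Neither was after rescaling to the same sum, with log2 ratios of 1.96 and 1.91, while the count over all loci fell from 1414 to 854. STN7, the LHCB2 kinase, was at 99.0 FPKM in leaf, 30.6 in silique and 17.4 in inflorescence, and TAP38, the phosphatase that reverses it, at 337, 85.5 and 63.1. AT1G44446, for the chlorophyllide a oxygenase that makes the chlorophyll b of the antenna, was at 57.7 FPKM in leaf, 27.7 in silique and 15.7 in inflorescence. AT2G47450, for the signal recognition particle protein cpSRP43 that carries antenna proteins to the thylakoid, was at 111 FPKM in leaf, 34.6 in silique and 47.4 in inflorescence. The median log2 ratio of the 6 for leaf over silique was 1.62.

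Chlorophyll synthesis genes had smaller median ratios. Of 12 with a locus of their own, 10 were highest in leaf, with a median log2 ratio for leaf over inflorescence of 0.83 and for leaf over silique of 0.48. Only PORC, a light-dependent protochlorophyllide reductase gene, was at least 4-fold higher in leaf than in inflorescence, at 267 FPKM in leaf, 82.6 in silique and 64.8 in inflorescence, against 8.11% of all loci. Its log2 ratio of 2.03 was under the 4-fold limit in each of 3 rescalings, between 1.54 and 1.86. CHLH, of the magnesium chelatase, was at 178 FPKM in leaf, 134 in silique and 70.4 in inflorescence. CHLM and CHLG, of later steps, were at 221 and 140 FPKM in leaf, 107 and 56.8 in silique, and 120 and 56.0 in inflorescence. The ratio of silique to inflorescence for CHLG changed sign under rescaling.

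Of 12 regulators of photosynthesis genes with a locus of their own, 11 were highest in leaf in the deposited values. The exception was HY5, at 6.01 FPKM in leaf, 6.26 in silique and 12.8 in inflorescence. PHYB was not highest in leaf after rescaling to the same sum, at -0.03 for leaf over inflorescence. At least 4-fold higher in leaf than in inflorescence were 6 of the 12, against 8.11% of all loci. After rescaling to the same sum there were 4, and GNC was among those that dropped out, while the count over all loci fell from 1414 to 854. At least 4-fold higher in leaf than in silique were 5, against 5.94% of all loci. The medians were 2.18 for leaf over inflorescence and 1.56 for leaf over silique. GLK1, a transcription factor that activates antenna and chlorophyll genes, was at 128 FPKM in leaf, 5.34 in silique and 9.54 in inflorescence. GLK2, its partner, named after its values were seen, was at 77.3 FPKM in leaf, 10.8 in silique and 8.57 in inflorescence. The GATA factor gene GNC was at 50.3 FPKM in leaf, 4.26 in silique and 8.72 in inflorescence. PIF4 and PIF5, for light-labile repressors of light responses, were at 29.7 and 40.9 FPKM in leaf, 5.34 and 12.7 in silique, and 1.02 and 1.04 in inflorescence. GLK1 and GNC were lowest in silique, and GLK2, PIF4 and PIF5 in inflorescence.

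**Figure D4:**
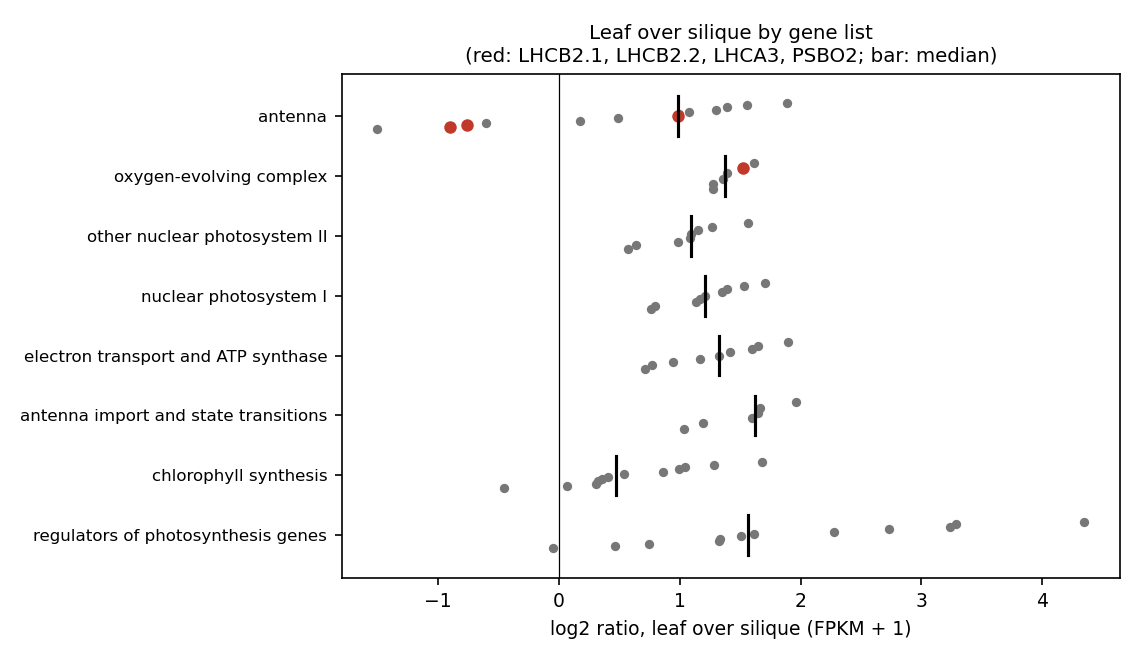
Log2 ratio of leaf over silique for the named genes of 8 lists, with 1 point per gene, spread vertically for legibility, and a black bar at the median of each list. Red points are LHCB2.1 (-0.90), LHCB2.2 (-0.76), LHCA3 (0.99) and PSBO2 (1.53); the list medians run between 0.48 for chlorophyll synthesis and 1.62 for antenna import and state transitions.

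Outside the lists, the loci closest to each gene in organ pattern were sought among 2084 named loci with at least 100 FPKM in their highest organ. Closeness was the distance between 2 log2 ratios, leaf over inflorescence and silique over inflorescence, each from the same 3 libraries. Nearest to LHCB2.1 were AGP17 at 0.035, PHI-1 at 0.30, LRX3 at 0.36 and FT at 0.57, and nearest to LHCB2.2 were AGP17 at 0.13, PHI-1 at 0.41, AT4G19420 at 0.48 and LRX3 at 0.49. AGP17, an arabinogalactan protein gene, was at 87.9 FPKM in leaf, 160 in silique and 15.9 in inflorescence. LHCA3 had AAP2 at 0.21, FIB at 0.29, NHL1 at 0.34 and THI1 at 0.34. PSBO2 had AT4G12290 at 0.10, the nitrite reductase gene NIR1 at 0.11, PSI-P (AT2G46820) at 0.11 and AT1G22190 at 0.12. Between the 4 genes themselves the distance was 0.14 for LHCB2.1 and LHCB2.2, 0.44 for LHCA3 and PSBO2, and between 1.44 and 2.02 for the mixed pairs.

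The leaf, flower and seed markers were highest in the organ of their label, except the flower marker SEP2, which was level between silique and inflorescence. Summed over 5 seed genes the level was 121 FPKM in leaf, 34930 in silique and 45.9 in inflorescence, and over 6 flower and pollen genes 29.1, 297 and 1716. All 4 leaf markers were highest in leaf. RBCS1A, of Rubisco, was at 21488 FPKM in leaf, 10868 in silique and 7169 in inflorescence. Its log2 ratios were 1.58 for leaf over inflorescence and 0.98 for leaf over silique, both under the 4-fold limit. RCA, the Rubisco activase gene, was at 7156 FPKM in leaf, 1713 in silique and 826 in inflorescence. CYP79F1 and MAM1, of glucosinolate synthesis, were at 607 and 721 FPKM in leaf, 40.1 and 45.6 in silique, and 0.692 and 1.81 in inflorescence. No marker was at 0 in any organ. In silique AP3 and SEP2, floral identity genes, were still at 63.3 and 142 FPKM, against 91.9 and 141 in inflorescence. The other 4 of the 6 flower markers were at least 4-fold lower in silique than in inflorescence, against 5.52% of all loci. Of these, PI, also a floral identity gene, was at 3.94 FPKM in silique against 141 in inflorescence, and PPME1 at 3.09 against 250. Each organ is a mixture of green and non-green cells, and fewer photosynthetic cells cannot be told apart from less of these RNAs per cell.

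Some clock and stress genes differed between the libraries as well. Of 9 named clock genes, 5 were highest in leaf and 3 in silique in the deposited values. CCA1, highest in leaf, was nearly level, at 3.30 FPKM in leaf, 2.47 in silique and 2.50 in inflorescence. PRR9, highest in silique, was under 1 FPKM in every organ. GI, PRR7 and ELF4 were at least 4-fold higher in leaf than in inflorescence, against 8.11% of all loci. None was after rescaling to the same sum, while the count over all loci fell from 1414 to 854. The 4 with the widest range follow. GI and PRR7 were at 17.9 and 17.0 FPKM in leaf, 21.3 and 17.1 in silique, and 2.74 and 2.46 in inflorescence. Their log2 ratios for leaf over silique were -0.24 and -0.01, so PRR7 was nearly level between these 2 organs. LUX and ELF4, of the evening complex, were at 60.4 and 123 FPKM in leaf, 47.6 and 17.6 in silique, and 20.1 and 21.9 in inflorescence. Of 5 stress markers 4 were lowest in inflorescence and COR15A was lowest in silique, and their sum was 236 FPKM in leaf, 164 in silique and 67.7 in inflorescence. RAB18 was at 44.8 FPKM in leaf, 72.9 in silique and 3.20 in inflorescence, and RD29A, HSP90.1 and HSP70 were at 17.5, 15.8 and 11.1 in leaf, 10.5, 13.9 and 27.8 in silique, and 1.31, 1.98 and 2.70 in inflorescence. The part of clock phase and of stress in the levels of LHCB2.1, LHCB2.2, LHCA3 and PSBO2 was not tested.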

How the data were processed

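The authors deposited FPKM per identifier, with an interval and no strand or gene name, per the file headers. TopHat and TAIR10 are named in the submitters' processing notes, while the quantification tool, how reads with several matches were treated and whether libraries were scaled to each other are not stated there. The depth is unknown: at loci of 1500 to 2500 bp, FPKM times kilobases lay within 0.1 of a whole multiple of the lowest values in 22.5% of leaf, 24.6% of silique and 23.6% of inflorescence values, against 20% if spread evenly. Summed FPKM was 1274230 in leaf, 1066360 in silique and 903233 in inflorescence. FPKM compares genes per length, but a few highly abundant transcripts depress the rest of a library.

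Loci were named from a RefSeq gene table (TAIR10.1, names only) when alone at their position and overlapped at least 50% both ways by exactly 1 gene. Ratios used a pseudocount of 1, which understates low genes. The 4 genes and 17 lists (143 entries, 117 with a named locus) were chosen with earlier results of these data known. Genes named were all those of the antenna and oxygen-evolving lists, the 4 with the widest range in each other list, nearest neighbours, and the 4 closest patterns. The choice of GLK2, COR15A, GSA1, PORB, PORA, HEMA1, HY5, PHYB, CCA1 and PRR9 followed a look at their values and lies outside that rule. The counting step was tested on simulated data. Python 3.11.15, pandas 2.3.3 and NumPy 2.4.6 were used.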

Additional observations from a re-analysis of the deposited data

How the results depend on the processing

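No test was possible with 1 library per organ, and the depth behind each value is unknown. No paired analysis was possible because each organ has 1 library and no result comes from a test; no replicate could be left out for the same reason. All 12 log2 ratios of LHCB2.1, LHCB2.2, LHCA3 and PSBO2 kept their direction and moved by less than 1.5-fold under pseudocounts of 0.1 and 5 and 3 rescalings.

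Counts of 4-fold differences depended more on the settings. At 2-fold, 6810 loci differed between leaf and inflorescence, 6833 between leaf and silique and 4497 between silique and inflorescence, against 3519, 3158 and 2273 at 4-fold, and at 8-fold 1730, 1653 and 1190. With a minimum of 20 FPKM they were 2106, 1904 and 1352, and a pseudocount of 5 gave 1839, 1688 and 1184. Antenna genes at least 4-fold apart between leaf and inflorescence fell to 4 when libraries were rescaled to the same sum, to 6 when rescaled without the 100 highest loci and to 1 at 8-fold, against 10. For the oxygen-evolving complex these counts were 1, 2 and 0, and 3 after rescaling to a median of 0, against 5. All of these genes were higher in leaf. Over all loci those higher in leaf numbered 854, 1037, 523 and 1165 in the same settings, against 1414. Between leaf and silique at 2-fold, 5 antenna and 6 oxygen-evolving complex genes were higher in leaf and 1 antenna gene in silique, against none at 4-fold. Of 17451 loci, 3151 were then higher in leaf and 3682 in silique. At a pseudocount of 0.1, 1 antenna gene was 4-fold higher in leaf, as were 1198 of all loci. Between silique and inflorescence, 9 antenna genes and 1 oxygen-evolving complex gene were higher in silique at 2-fold and 3 antenna genes at 8-fold, against 5 and none. Of 17793 loci, 2587 were higher in silique at 2-fold and 690 at 8-fold, against 1291.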

Other observations

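ELIP1 and ELIP2, early light-induced relatives of the antenna proteins that bind pigments under light stress, had their highest level in silique. ELIP1 was at 3.94 FPKM in leaf, 21.9 in silique and 17.5 in inflorescence. ELIP2 was at 0.206 FPKM in leaf, 55.9 in silique and 3.72 in inflorescence. Both were at least 4-fold higher in silique than in leaf, as were 12.2% of loci. Among chlorophyll breakdown genes, SGR1, the magnesium dechelatase that starts the loss of green colour, was at 30.5 FPKM in leaf, 52.2 in silique and 60.3 in inflorescence. NYC1, a chlorophyll b reductase gene, was at 228 FPKM in leaf, 102 in silique and 116 in inflorescence, and PPH at 95.7, 45.5 and 39.2. The senescence markers had no common order: SAG12 was at 0.406 FPKM in leaf, 21.4 in silique and 345 in inflorescence, SWEET15 at 0.384, 157 and 12.1, NAP at 63.5, 8.26 and 44.4, and SAG13 at 11.9, 28.6 and 14.2.

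Photosystem genes and the Rubisco gene RBCL encoded by the chloroplast were low in the table, although their proteins are abundant in leaf. Of 7 listed, 4 had a locus of their own, and all 4 were highest in silique and lowest in inflorescence, the order seen in LHCB2. PSBA, of the photosystem II reaction centre, was at 47.6 FPKM in leaf, 56.0 in silique and 6.77 in inflorescence, and RBCL, of Rubisco, at 6.85, 21.1 and 3.93. PSAA and PSAB were at 1.47 and 3.32 FPKM in leaf, 4.16 and 6.33 in silique, and 0.770 and 1.23 in inflorescence. How RNA was selected for the libraries is not given in the sources used here.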
